A study of Rattus norvegicus with 12 samples.

Results

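The Hedgehog pathway was followed through 7 genes: the transcription factors *Gli1*, *Gli2* and *Gli3*, the receptor *Ptch1*, the membrane transducer *Smo*, the Gli inhibitor *Sufu* and the decoy receptor *Hhip*. They were picked by gene symbol from a table of 21556 genes, and all 7 were present. The set was proposed because *Gli3* was lower with Wnt3a than in control cells, a choice made with the values of *Gli3* in all 4 groups in view. The values of *Gli3*, and those of Wnt3a against control for every member, are therefore given as a description, with no test. The samples were ND7/23 cells, an established hybrid line derived from rat dorsal root ganglion neurons fused with N18Tg2, a mouse neuroblastoma. There were 4 conditions and 12 libraries, 3 for each condition: unstimulated control cells, cells with menthol at 100 μM, cells with Wnt3a at 100 ng/ml, and cells with menthol and Wnt3a at those same doses. All were collected at 6 h. Menthol activates the cold-sensing channel TRPM8, and Wnt3a is a ligand of Wnt/β-catenin signaling. All groups share the same hybrid line, the labels do not say whether libraries of a group came from separate cultures, and p-values therefore measure only the spread between these libraries, which may be technical.

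Hedgehog ligands act by binding Ptch1, a membrane protein that holds Smo inactive when no ligand is present. Active Smo gathers at the primary cilium and releases the Gli factors from Sufu and from phosphorylation and cleavage. Gli2 mainly acts as the activator, Gli3 is often processed to a repressor, and *Gli1*, *Ptch1* and *Hhip* are themselves classical target genes whose transcripts serve as readouts of the pathway.

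Reads on genes ranged from 36914722 to 38837023 per library, with the deepest library holding 1.0521 times the reads of the shallowest. FPKM scales the read fragments of a gene by its length and by the mapped fragments of the library, so levels can be compared between genes per length. *Axin2*, a target of Wnt/β-catenin signaling, served as a check of the stimulus. Its mean FPKM was 4.95 ± 0.201 in control and 5.01 ± 0.402 with menthol, against 7.10 ± 0.479 with Wnt3a and 8.30 ± 0.445 with both (SD, n = 3 each). The neuronal origin of the line was checked with 13 sensory neuron markers, and only *Isl1* had a mean of at least 0.5 FPKM. *Tubb3* had 0 to 6 reads per library, *Prph* 0 to 8 and *Pou4f1* 0 to 4, so the defining neuronal transcripts were at or near 0. *Trpm8* itself had 61 to 97 reads (0.189 to 0.307 FPKM). Of 5 fibroblast markers, 3 had a mean of at least 0.5 FPKM, with *Col1a2* at 109 to 127 FPKM. These levels went against a sensory neuron identity, and the cells are called here only by the name of the line. Because these are bulk RNA samples, fewer cells of a type and less RNA per cell cannot be told apart.

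The promoters of *Gli3* and *Ptch1* are shown because these were the 2 members whose levels separated the libraries with Wnt3a from those without. They are the 250 bases before the annotated start site in RefSeq's rat assembly GRCr8, read 5′ to 3′ along the gene's strand. *Gli3* lies at chr17:54405199-54405448 on the minus strand, and *Ptch1* at chr17:1555321-1555570 on the plus strand. Capitals mark a match to the Gli motif.
Gli3: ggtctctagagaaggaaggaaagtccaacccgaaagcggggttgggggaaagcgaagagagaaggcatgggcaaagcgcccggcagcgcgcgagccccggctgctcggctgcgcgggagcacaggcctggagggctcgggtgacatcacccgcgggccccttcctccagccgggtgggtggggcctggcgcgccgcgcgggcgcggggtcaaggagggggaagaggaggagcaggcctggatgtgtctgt
Ptch1: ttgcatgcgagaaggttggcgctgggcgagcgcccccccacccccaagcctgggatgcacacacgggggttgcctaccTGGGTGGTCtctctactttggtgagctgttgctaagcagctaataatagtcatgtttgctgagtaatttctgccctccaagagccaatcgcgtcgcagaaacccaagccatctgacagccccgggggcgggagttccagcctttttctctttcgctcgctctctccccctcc
The motif searched, GACCACCCA on either strand, is the consensus that Gli proteins bind. The window of 300 bases also took in 50 bases after the start site. *Ptch1* held 1 match, TGGGTGGTC, the motif on the opposite strand, which starts at base 79 and ends 164 bases before the start site. The same letters were present in 129 of 33469 rat promoters (0.385%). Among 50 promoters of Hedgehog pathway and Gli-like genes, listed below by role, they were present in *Ptch1* and *Ulk3*. No match to the TCF/LEF motif CTTTGAT, present in 3.63% of all promoters, or to the cAMP response element TGACGTCA, present in 1.83%, was found in the promoters of 6 members. For *Gli1* no promoter sequence was used here. The GC content of the 300-base window was 72% for *Gli3* and 57.3% for *Ptch1*, against a median of 51.7% over all promoters. A match describes the letters in these windows and is not a measured binding site.

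The members differed widely in level on the FPKM scale. *Gli3* was the most abundant at a mean of 15.05 FPKM (2212 to 3285 reads per library), higher than 79% of all genes in the table. *Smo* followed at 13.09 FPKM (1060 to 1281 reads), and the ranges of these 2 genes overlapped over the 12 libraries. *Sufu* was lower at 7.03 FPKM (1059 to 1340 reads), and *Ptch1* lower again at 4.34 FPKM (1309 to 1846 reads). *Gli2* came to 0.320 FPKM (48 to 104 reads), so that the level of *Gli3* was 36.6 to 90.1 times that of *Gli2* in the same library. *Gli1* had 1 to 7 reads per library, 43 in all (mean 0.0219 FPKM). *Hhip* had 1 read, in menthol with Wnt3a replicate 1, and was listed at 0 in the other 11 libraries. A minimum mean of 0.5 FPKM over the 12 libraries was set for the test, which 4 of the 7 members met (*Gli3*, *Ptch1*, *Smo* and *Sufu*).

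Around these members, a Hedgehog list of 76 genes was made by role, of which 73 were in the table and 48 met the minimum. It holds 8 Gli-like zinc finger genes, relatives of the Gli factors that are not parts of the pathway itself. The ligand side was sparse. *Dhh*, which encodes the Desert hedgehog ligand, averaged 2.65 FPKM, *Disp1*, which releases ligand from the producing cell, 4.52 FPKM, and *Scube2*, a secreted helper of that release, 0.523 FPKM. *Ihh* stood at 0.0472 FPKM, and *Shh* was not analysed here. Among receptors, only *Ptch1* and the co-receptor *Cdon* (2.21 FPKM) met the minimum, while the co-receptor *Boc* had 0.443 FPKM. The machinery around Smo was better covered, led by *Arrb1* (33.2 FPKM), the ubiquitin ligase *Mgrn1* (32.0 FPKM) and the kinase *Grk2* (23.6 FPKM). All 17 regulators of Gli proteins met the minimum, with the casein kinases *Csnk1a1* (76.5 FPKM) and *Csnk1d* (55.1 FPKM) and the cullin *Cul3* (37.8 FPKM) at the top. So did all 11 genes of ciliary transport, among them *Ift52* (20.4 FPKM), *Tulp3* (16.8 FPKM) and *Kif3b* (12.6 FPKM). Of 7 Gli-like zinc finger genes in the table, *Glis3* (19.8 FPKM) and *Glis2* (11.98 FPKM) met it, followed by *Zic4* at 0.327 FPKM. Of 8 target genes, *Ccnd1*, which encodes cyclin D1, had 382 FPKM, while *Bcl2* (0.798 FPKM) and *Foxa2* (0.580 FPKM) were just above the minimum and the other 5 were under 0.03 FPKM.

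**Figure D1:**
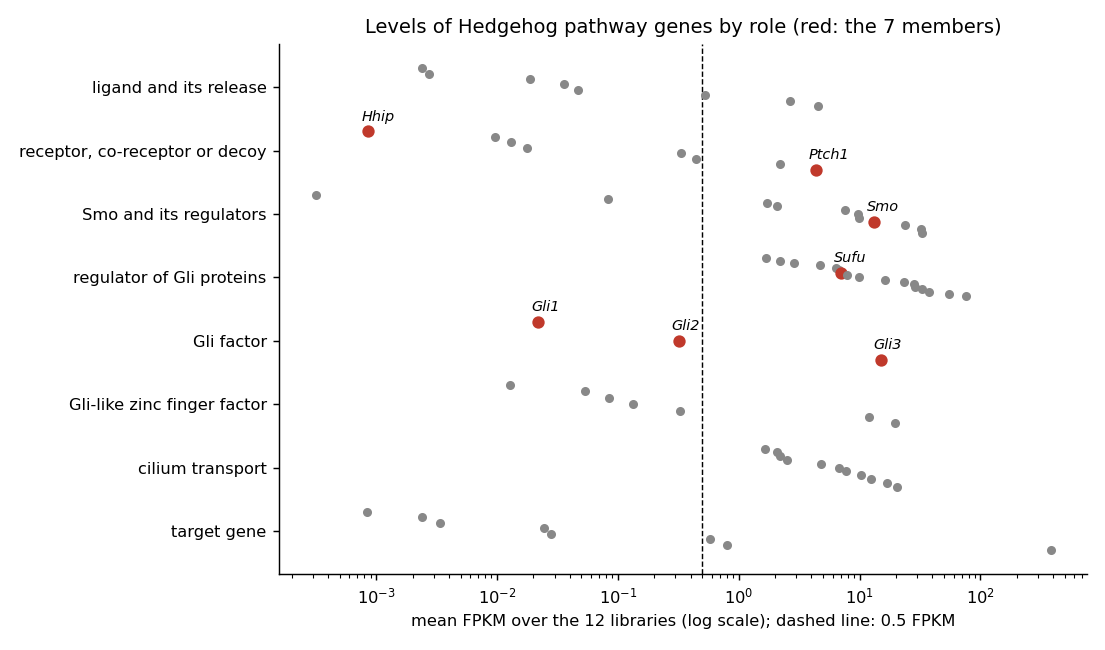
Mean level of each gene of the Hedgehog list in the table over the 12 libraries, in FPKM on a log axis, with 1 point per gene, arranged by role. The 7 members are red, and *Gli3*, *Smo*, *Sufu* and *Ptch1* lie to the right of the dashed line at 0.5 FPKM while *Gli2*, *Gli1* and *Hhip* lie to its left.

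*Gli3* was lower in every library with Wnt3a than in every library without it. The 3 control libraries had 16.68, 15.79 and 16.91 FPKM, and the 3 libraries with menthol alone 16.27, 15.68 and 16.18 FPKM. With Wnt3a alone the values were 13.25, 11.92 and 14.36 FPKM, and with menthol and Wnt3a 14.87, 14.53 and 14.15 FPKM. The order of the group means was Wnt3a, menthol with Wnt3a, menthol and control, from 13.18 to 16.46 FPKM. Neighbours overlapped at both ends of this order, Wnt3a with menthol and Wnt3a together, and menthol with control, and the gap lay between 14.87 and 15.68 FPKM. The Wnt3a group had the widest spread of the 4, with an SD of 1.22 FPKM against 0.32 to 0.586 FPKM in the others.

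By the comparison that chose it, the mean of *Gli3* differed by -19.9% between Wnt3a and control, a log2 fold change of -0.32 (SE 0.057) on the log2(FPKM + 0.1) scale on which all fold changes here are given. This comparison was not tested, and leaving out 1 library at a time moved the log2 fold change between -0.39 and -0.25. Of the 11451 genes tested, 2.66% had a larger change in it, and 20.2% had groups that did not overlap. In the 6 libraries with menthol, menthol with Wnt3a differed from menthol alone by -9.51% (14.52 ± 0.364 against 16.04 ± 0.32 FPKM, SD, n = 3 each), a log2 fold change of -0.14 (SE 0.057). All 3 libraries with both agents were below all 3 with menthol alone, and the groups did not overlap, in either direction, for 11.3% of the genes tested.

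With menthol alone, *Gli3* overlapped with control, at 16.04 against 16.46 FPKM (log2 fold change -0.04, SE 0.057). Added to Wnt3a, menthol went with a higher level, 14.52 against 13.18 FPKM (log2 fold change 0.14, SE 0.057), and the groups overlapped. Without Wnt3a replicate 2, which had the lowest *Gli3* and the fewest reads of all libraries, the latter was 0.07, and without Wnt3a replicate 3 it was 0.21. The interaction of menthol and Wnt3a was 0.18 (SE 0.081), also a description. Of the genes tested, 17.3% had a larger change when menthol was added to Wnt3a, and 14.2% a larger interaction. The interaction of *Sufu* was 0.19 (SE 0.094), and it was above 0 for all 4 members over the minimum.

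**Figure D2:**
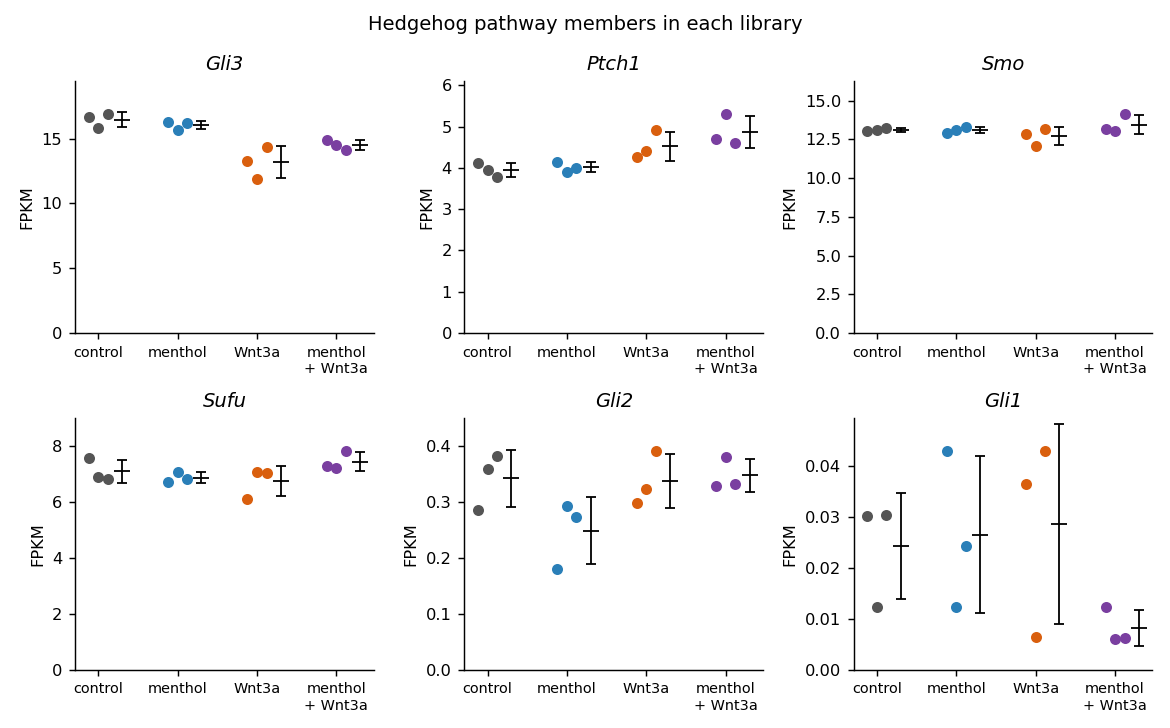
FPKM of 6 members in each of the 12 libraries, with 1 point per library, 3 per group, and the group mean with its SD beside them. All 6 *Gli3* points with Wnt3a lie at or below 14.87 FPKM and all 6 without it at or above 15.68 FPKM, while *Ptch1* has all points without Wnt3a at or below 4.146 FPKM and all points with it at or above 4.252 FPKM.

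*Ptch1*, the receptor and itself a target of the Gli factors, was higher in every library with Wnt3a than in every library without it, and its mean was highest with both agents. The gap was narrow, from 4.146 FPKM in menthol replicate 1 (1421 reads) to 4.252 FPKM in Wnt3a replicate 1 (1467 reads). For *Gli3* and *Ptch1*, the share of all genes separated in this way was not counted. The control libraries had 4.121, 3.952 and 3.780 FPKM and those with menthol 4.146, 3.896 and 4.005 FPKM. With Wnt3a the values were 4.252, 4.399 and 4.922 FPKM, and with both agents 4.700, 5.306 and 4.6 FPKM. Against control, the Wnt3a mean was 14.5% higher (log2 fold change 0.19, SE 0.074), a comparison that is described only.

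In the libraries with menthol, *Ptch1* was at 4.869 ± 0.382 FPKM with Wnt3a and 4.015 ± 0.126 FPKM without it (SD, n = 3 each). The log2 fold change was 0.27 (SE 0.074, 95% interval 0.11 to 0.43), and 3.79% of the genes tested had a larger change. It did not pass, with a limma adjusted p of 0.364 that ranged from 0.0478 to 0.772 over 20 alternatives, and under 0.05 in 1 of them, limma voom on the recovered reads. The exact permutation test gave p = 0.1, the smallest possible. For menthol itself, no difference in *Ptch1* passed. The log2 fold change was 0.02 against control (95% interval -0.14 to 0.18, limma adjusted p = 0.952) and 0.10 against Wnt3a (95% interval -0.06 to 0.26, limma adjusted p = 0.556), and the groups overlapped in both.

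*Smo* and *Sufu*, which sit between the receptor and the Gli factors, had narrower ranges. The highest library was at 1.17 times the lowest for *Smo* and 1.28 times for *Sufu*, against 1.42 times for *Gli3* and 1.4 times for *Ptch1*. *Smo* had 13.01, 13.09 and 13.22 FPKM in the control libraries, 12.91, 13.10 and 13.31 FPKM after menthol, 12.84, 12.05 and 13.19 FPKM after Wnt3a, and 13.16, 13.01 and 14.14 FPKM after both. Its groups overlapped in all 5 comparisons, with log2 fold changes between -0.05 and 0.08. The 95% interval of menthol against control was -0.10 to 0.10 (limma adjusted p = 0.999). *Sufu* had 7.565, 6.890 and 6.792 FPKM in control and 6.706, 7.066 and 6.798 FPKM with menthol. It had 6.103, 7.075 and 7.023 FPKM with Wnt3a and 7.279, 7.189 and 7.821 FPKM with both agents. The 3 libraries with both agents were above all 3 with Wnt3a (log2 fold change 0.14, SE 0.066, limma adjusted p = 0.346) and above all 3 with menthol (0.11, SE 0.066, limma adjusted p = 0.837), and they overlapped with control. Groups did not overlap for 17.7% of all genes in the first of these and 11.3% in the second. Neither difference passed, and the exact permutation p was 0.1 for both, the smallest that 3 libraries against 3 allow.

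**Figure D3:**
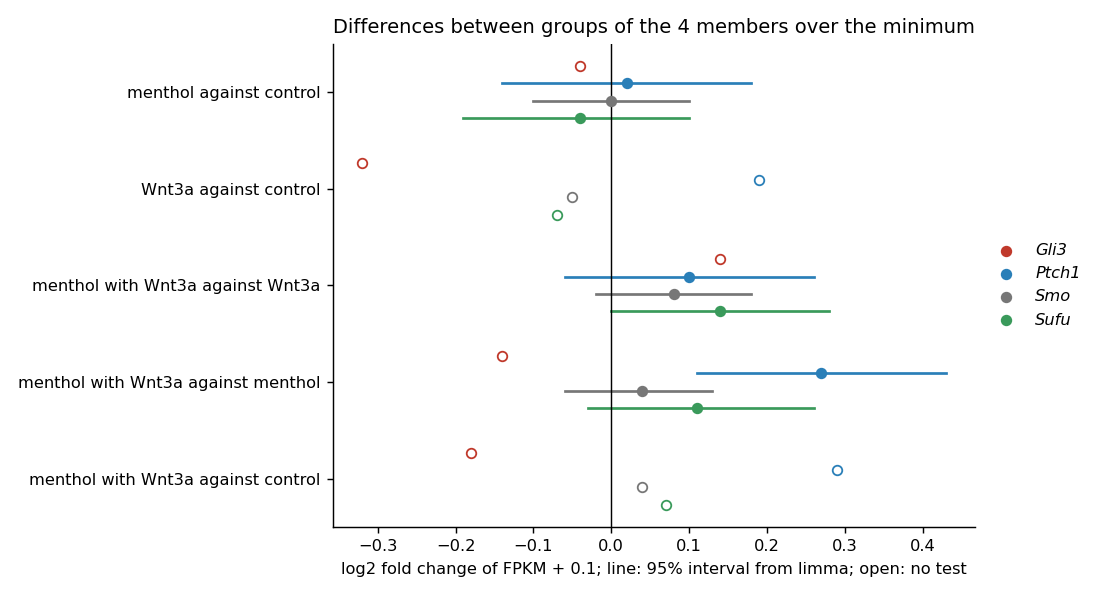
Log2 fold change of *Gli3*, *Ptch1*, *Smo* and *Sufu* in 5 comparisons, on the log2(FPKM + 0.1) scale, as points, with lines for the 95% interval from limma where a test was made and open points where the comparison is a description. In menthol with Wnt3a against menthol *Gli3* lies at -0.14 as an open point and the interval of *Ptch1* runs from 0.11 to 0.43, and none of the tested points passed at an adjusted p under 0.05.

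Of *Ptch1*, *Smo* and *Sufu*, by limma, 0 of 3 passed an adjusted p under 0.05 in menthol against control, where 0.105% of all genes did, 0 of 3 in menthol with Wnt3a against Wnt3a (0.0524% of all genes) and 0 of 3 in menthol with Wnt3a against menthol (0.0961%). At an unadjusted p under 0.05 there were 0 of 3 in the first comparison and 0 of 3 in the second, where 9.34% and 14.5% of all genes reached it, and *Ptch1* reached it in the last (6.72% of all genes). By limma voom on the recovered reads, only *Ptch1* passed, in the last of these, where 33 of all 11451 genes did. Groups did not overlap for 0 of 3 in the first, where 15.9% of all genes did not overlap, for *Sufu* in the second (17.7% of all genes), and for *Ptch1* and *Sufu* in the last (11.3% of all genes). In menthol with Wnt3a against control, a description like Wnt3a against control, *Gli3* differed by -11.8% and *Ptch1* by 23.2%, both with no overlap, where 20.5% of all genes did not overlap.

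Within a library, the level of *Gli3* relative to *Ptch1* restates their separate values. It had to separate the groups by Wnt3a, since *Gli3* was lower and *Ptch1* higher in every library with Wnt3a. The ratio of the FPKM values was 3.997 to 4.472 in control and 3.924 to 4.04 with menthol, against 2.709 to 3.116 with Wnt3a and 2.738 to 3.165 with both agents. Relative to *Smo*, *Gli3* went from a mean ratio of 1.256 ± 0.0424 in control and 1.224 ± 0.033 with menthol to 1.037 ± 0.0504 with Wnt3a and 1.082 ± 0.0713 with both (SD, n = 3). Both ratios contain *Gli3* and so repeat its choice, and neither is a further result. Over the 12 libraries the log2 values of *Gli3* and *Ptch1* had a Pearson correlation of -0.496, which was 0.427 once the group means were removed, so the opposite movement lay between groups and not between libraries of a group.

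The members under the minimum had few reads, and their depth limits what can be said. The reads of *Gli2* were 77, 95 and 103 in the control libraries, 48, 78 and 73 after menthol, 80, 83 and 104 after Wnt3a and 87, 103 and 88 after both. Summed over 3 libraries this came to 275 for control (exact Poisson 95% interval 243 to 309) and 199 for menthol (172 to 229), against 267 and 278 in the groups with Wnt3a, where the interval covers counting error only. Menthol replicate 1 was the lowest library, and the lowest control library, at 77 reads, was just under the highest menthol library, at 78. In a limma fit with no minimum, *Gli2* had a log2 fold change of -0.35 in menthol against control (SE 0.17, adjusted p = 0.719) and 0.37 in menthol with Wnt3a against menthol (SE 0.17, adjusted p = 0.883).

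*Gli1*, the usual readout of pathway activity, was covered by 5, 2 and 5 reads in the control libraries, 7, 2 and 4 after menthol, 6, 1 and 7 after Wnt3a, and 2, 1 and 1 after both. The sums were 12, 13, 14 and 4 reads. Their exact Poisson 95% intervals were 6.2 to 21 in control, 7.65 to 23.5 with Wnt3a and 1.09 to 10.2 with both agents, which overlap. The groups overlapped too, and with no minimum the limma adjusted p was 0.551 against Wnt3a and 0.908 against menthol. *Hhip* had 0 reads in each of 3 groups, which allows a summed count of up to 3.69 by the same interval. No difference between groups in *Gli1* or *Hhip* was detected at this depth, and the size of difference that could be detected was not measured.

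The 5 genes whose log2 values most resembled *Gli3* over the 12 libraries were *Il6st*, a shared receptor subunit of interleukin-6 type cytokines (Pearson correlation 0.985), the ubiquitin ligases *Rlim* (0.970) and *Rnf111* (0.951), the receptor kinase *Epha2* (0.940) and the kinase *Cdc42bpa* (0.933). The correlation with *Gli3* had a median of -0.026 over 11450 genes, and 95% of them were below 0.654. The mean of *Il6st* was 53.55 FPKM for control, 53.04 for menthol, 46.46 for Wnt3a and 49.34 for both agents. Its Wnt3a range of 44.22 to 48.57 FPKM was below that of control, 52.91 to 54.17 FPKM. Among the genes most opposite to *Gli3*, looked up after the values were seen, were *Rpl13a* (-0.956) and *Rps18* (-0.945), which encode ribosomal proteins. *Rpl13a* averaged 959.6 FPKM in control and 1027 FPKM with Wnt3a. These are descriptions over 12 libraries that share the line and the 4 conditions.

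The share of reads on 81 ribosomal protein genes moved opposite to *Gli3* and was measured after these values were seen. It was 3.787 to 3.905% for control, 3.919 to 4.053% for menthol, 4.013 to 4.322% for Wnt3a and 3.953 to 4.087% for both agents. Its correlation with *Gli3* was -0.86 over 12 libraries and -0.31 over the 6 without Wnt3a, and with *Ptch1* 0.34 over 12. Wnt3a replicate 2 had the highest share and the lowest *Gli3*. The mean length of the gene a read fell on was 4234 to 4256 bases in control and 4154 to 4221 bases with menthol. It was 4064 to 4220 bases with Wnt3a and 4169 to 4228 bases with both agents. Its correlation with *Gli3* was 0.73 over 12 libraries and 0.05 over the 6 without Wnt3a. Among the marker lists, the summed FPKM of 13 sensory neuron genes was 10.14 to 12.32 in the libraries without Wnt3a and 15.37 to 18.96 in those with it, nearly all of it *Isl1*, with *Elavl4* at 0 or 1 read throughout. The summed FPKM of 5 fibroblast genes was 133.6 to 142 in control and 121.3 to 132.6 in the other groups, that of 5 glial genes 0.404 to 1.104 and that of 4 muscle genes 0.742 to 1.616. The part of library composition and of these markers in the values of *Gli3* and *Ptch1* was not tested.

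**Figure D4:**
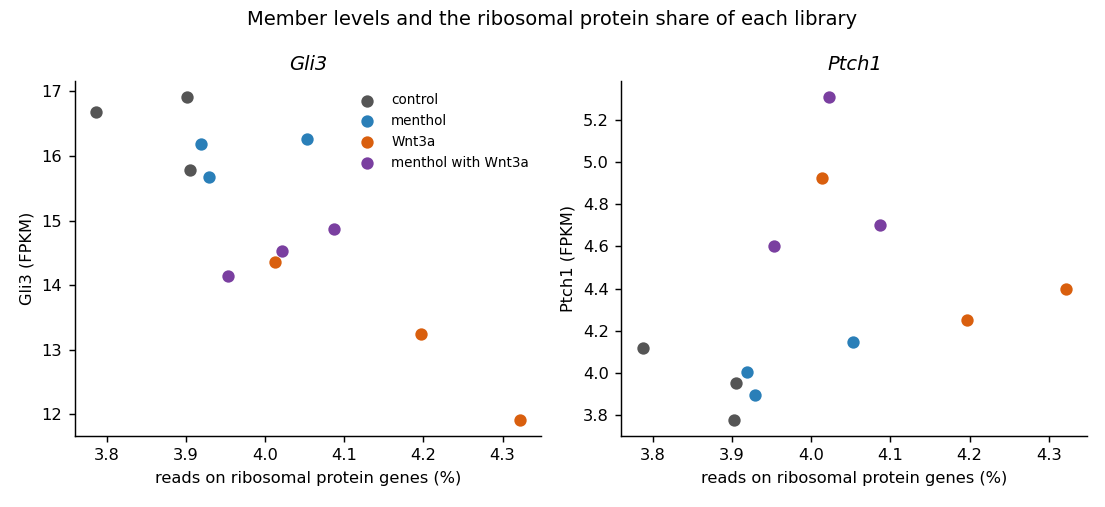
FPKM of *Gli3* (left) and *Ptch1* (right) against the percentage of reads on ribosomal protein genes, with 1 point per library coloured by group. *Gli3* is lowest in the Wnt3a library with the highest share, 4.322%, and *Ptch1* is highest, at 5.306 FPKM, in a library with both agents and a share of 4.022%.

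Over the whole Hedgehog list, changes were small and passed in 1 gene, the Gli-like factor *Glis3*. In menthol against control, 15 of 48 genes were higher and 33 lower, with a median log2 fold change of -0.022 against -0.002 over all genes tested, and 0 passed. Tests are counted over the 47 genes other than *Gli3*. At an unadjusted p under 0.05 there were 4 genes (8.51%, against 9.34% of all genes). Limma voom on the recovered reads also passed 0, against 60 of all 11451 genes. The lowest were *Spop*, an adaptor that brings Gli proteins to Cul3 for degradation, which went from 16.91 ± 0.794 to 14.59 ± 0.967 FPKM (log2 fold change -0.21, SE 0.054, limma adjusted p = 0.204), and *Dync2h1*, the motor of retrograde ciliary transport (-0.20, limma adjusted p = 0.611). The highest were *Ccnd1* (0.09, limma adjusted p = 0.527) and *Evc*, a ciliary partner of Smo (0.09, limma adjusted p = 0.846). Groups did not overlap for 9 genes, all lower with menthol (18.8%, against 15.9% of all genes in either direction and 8.38% lower).

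With Wnt3a present, adding menthol gave 25 higher and 23 lower genes, with a median of 0.016 against -0.002 over all genes. Of the 47 other than *Gli3*, 0 passed in limma, and 7 had an unadjusted p under 0.05 (14.9%, against 14.5% of all genes). Limma voom passed 1 of them, *Ccnd1* (adjusted p = 0.0475), where it passed 143 of all 11451 genes. The lowest values were those of *Foxa2* (log2 fold change -0.50, limma adjusted p = 0.352), a low gene at 0.580 FPKM, and *Ift27*, a ciliary transport subunit (-0.23, limma adjusted p = 0.305). The highest were *Bcl2* (0.38, limma adjusted p = 0.566) and the kinase *Ulk3* (0.15, limma adjusted p = 0.523). Of the regulators near Smo and Gli, *Grk2* was at 0.15 (limma adjusted p = 0.132) and *Prkaca*, a catalytic subunit of protein kinase A, which phosphorylates Gli proteins, at 0.14 (limma adjusted p = 0.204), both with no overlap. *Prkacb*, another catalytic subunit, was at -0.03, and its groups overlapped. Of the 48 genes on the list, 8 were higher and 2 lower with no overlap (20.8%, against 17.7% of all genes). *Grk2* and *Prkaca* were chosen after their values were seen.

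In menthol with Wnt3a against menthol, 31 of 48 genes were higher and 17 lower, with a median of 0.021 against 0.004 over all genes. *Glis3*, a zinc finger factor related to the Gli family, was the only one to pass, where 0.0961% of all genes did. It had 17.86, 18.64 and 17.82 FPKM with menthol and 21.62, 21.85 and 20.85 FPKM with both agents, so that the groups did not overlap. Its mean rose from 18.11 ± 0.464 to 21.44 ± 0.523 FPKM (SD, n = 3 each, log2 fold change 0.24, SE 0.04, limma adjusted p = 0.0395), which placed it at rank 10 of 11451 genes by p. Over 20 alternatives its log2 fold change was 0.23 to 0.26. The adjusted p ranged from 0.000614 to 0.24 over them and was under 0.05 in 6. It was over 0.05 on leaving out any control, menthol or doubly treated library or Wnt3a replicate 1, from 0.0505 without control replicate 1 to 0.24 without menthol with Wnt3a replicate 2. The control libraries had 19.57, 18.73 and 19.64 FPKM and the Wnt3a libraries 20.28, 19.46 and 21.06 FPKM, which overlap. The other highest gene was *Ptch1*, and the lowest were *Foxa2* (log2 fold change -0.20) and *Gli3*. Among the 47 other than *Gli3*, 4 had an unadjusted p under 0.05 (8.51%, against 6.72% of all genes).

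**Figure D5:**
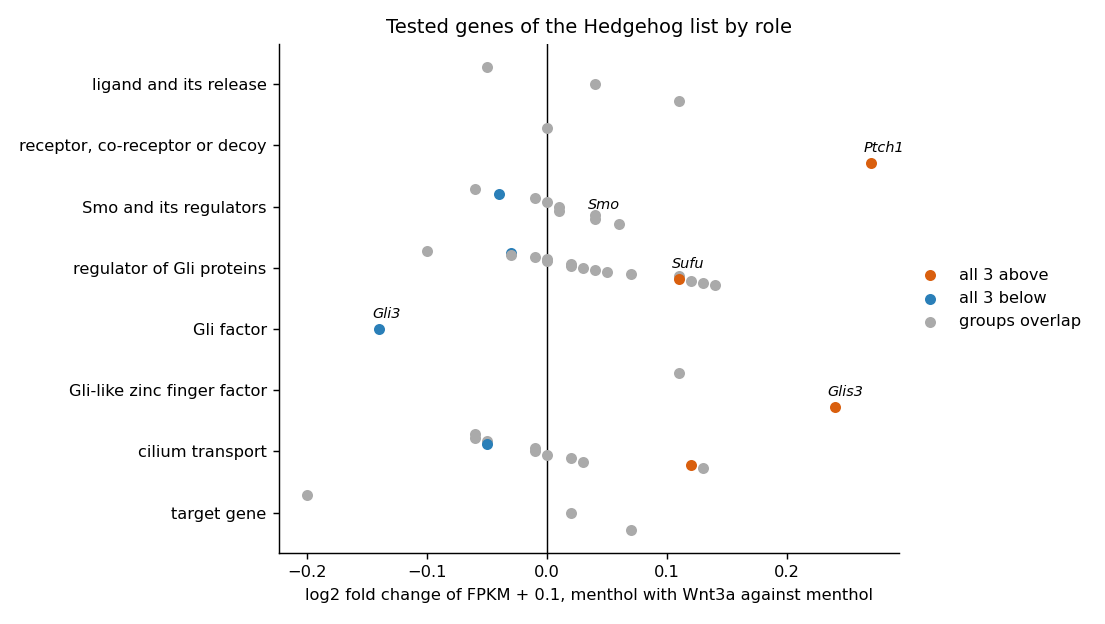
Log2 fold change of menthol with Wnt3a against menthol for the 48 tested genes of the Hedgehog list, 1 point per gene, arranged by role, with colour for groups that did not overlap. *Ptch1* (0.27) and *Glis3* (0.24) are farthest to the right, *Foxa2* (-0.20) and *Gli3* (-0.14) farthest to the left, and most genes lie near 0.

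The Hedgehog signaling pathway as annotated by KEGG in the table held 51 genes, all 7 members among them, and 39 met the minimum. Of the 38 other than *Gli3*, 0 passed by limma in each of the 3 tested comparisons. At an unadjusted p under 0.05 there were 3 in menthol against control (7.89%, against 9.34% of all genes), 4 in menthol with Wnt3a against Wnt3a (10.5%, against 14.5%) and 2 in menthol with Wnt3a against menthol (5.26%, against 6.72%). By limma voom 0 passed in menthol against control, where 60 of all 11451 genes did. In menthol with Wnt3a against Wnt3a 1 passed (*Ccnd1*, against 143 of all genes). In menthol with Wnt3a against menthol 1 passed (*Ptch1*, against 33 of all genes).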

How the data were processed

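Total RNA of ND7/23 cells had been sequenced as read pairs. By the submitters' processing notes and the study's methods, the authors used fastp for filtering, HISAT for alignment and HTSeq for counting per gene, and they deposited FPKM values of 21556 genes in 12 libraries, without pooling replicates. The notes name the rat build mRatBN7.2. How reads from the mouse genes of the hybrid were assigned is not given in the sources used here, and a gene's FPKM also depends on how the other genes share the reads. No columns of the authors' own comparisons were used.

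Whole reads per gene were recovered from the FPKM steps (21556 of 21556 genes, largest relative distance from a whole count 3.4e-13). The 1804 genes above 0 in 1 library only rest on 1 value. Each of the 12 pairs of replicates differed beyond sampling noise, which does not show whether they came from separate cultures. Every library was counted as 1 sample. Groups came from the sample labels. Values were tested as log2(FPKM + 0.1) with limma 3.58.1 in R 4.3.3, 11451 genes with a mean of at least 0.5 FPKM, all 4 groups in 1 fit, a variance trend, and Benjamini-Hochberg adjustment over all genes tested. A gene passed at an adjusted p under 0.05. The scale understates changes of low genes. Exact permutation tests over 6 libraries and exact Poisson intervals (95%) used Python 3.11.15 and scipy 1.17.1, and the intervals cover counting error only. The fit and the recovery of reads were tested on simulated data.

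The members, the Hedgehog list by role and the marker lists were chosen with earlier results of these data known. A test planned for *Gli3* in menthol with Wnt3a against menthol is not reported, since its values over all 4 groups were in view when it was chosen. The genes named were the 7 members, list genes that passed, the 2 highest and 2 lowest changes on the list per tested comparison, the 3 most abundant per role, the 5 most like *Gli3* and *Axin2*. Any other gene in the text was picked with its values in view. Promoters came from RefSeq's table for GRCr8, which differs from the build of the files, so no other coordinates are given. Alternatives were pseudocounts of 0.01 and 1, a minimum of 1 FPKM or none, median centring, fits of 2 groups, a replicate block, limma voom, a 2-fold threshold and leaving out each library in turn. *Foxl1*, *Shh* and *Myog* were not analysed here, and some genes that the rule or the lists cover are not reported here.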

Additional observations from a re-analysis of the deposited data

How the results depend on the processing

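*Gli3* in menthol with Wnt3a against menthol, a description, had log2 fold changes of -0.16 to -0.12 over 20 alternatives. *Ptch1* in the same comparison was at 0.21 to 0.31 and passed only by limma voom on the recovered reads (0.276, adjusted p = 0.0478). Changes of sign were met only for values near 0, on leaving out 1 library at a time. In menthol against control, *Ptch1* ranged from -0.007 (without control replicate 3) to 0.053, *Smo* from -0.011 to 0.011 (without menthol replicate 1, and 0.006 without control replicate 3) and *Sufu* from -0.074 to 0.003 (without control replicate 1). In menthol with Wnt3a against menthol, *Smo* ranged from -0.002 (without menthol with Wnt3a replicate 3) to 0.058.

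Counts of genes passing were unstable. Of all genes tested, 12 passed in menthol against control, 60 by voom, 2 with no FPKM minimum, 3 in a fit of the 2 groups, 1 with a 2-fold threshold and 0 to 15 with 1 library left out. In menthol with Wnt3a against Wnt3a, 6 passed, 143 by voom, 0 with no minimum, 0 in a fit of the 2 groups, 0 with a 2-fold threshold and 0 to 38 with 1 library left out. In menthol with Wnt3a against menthol, 11 passed, 5 after centring, 33 by voom, 2 with no minimum, 4 in a fit of the 2 groups, 0 with a 2-fold threshold and 3 to 14 with 1 library left out. Of the Hedgehog list, voom passed 1 in menthol with Wnt3a against Wnt3a and 2 in menthol with Wnt3a against menthol, where centring, no minimum and a fit of the 2 groups gave 0 and leaving out 1 library 0 to 1. The cause was not tested.

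Deviations of same-numbered libraries had correlations of -0.055 to 0.153 (median 0.013, 18 pairs). Those of other-numbered libraries were -0.157 to 0.115 (median -0.006, 36 pairs). The labels do not say whether replicate numbers pair the libraries, and this was not tested. With a replicate block, *Gli3* in menthol with Wnt3a against menthol was at -0.143, 21 genes passed in menthol against control, 24 in menthol with Wnt3a against Wnt3a, and 0 of the Hedgehog list in menthol with Wnt3a against menthol. Depth limits *Gli1* and *Hhip*, which had at most 7 reads in a library.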
